A study of Mus musculus with 20 samples.

Results

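The comparison set 2 RNA sequencing libraries of a mouse osteosarcoma cell line against 3 R245W osteosarcomas, which are 5 of the 20 libraries of the series. Osteosarcoma is a malignant bone tumour whose cells lay down bone matrix. The libraries were taken by their labels alone, with no measured value used to choose them. The line, number 14, was grown at necropsy from a primary mouse osteosarcoma and is labelled p53R245/O. Its control library is labelled as a heterozygous p53 mutant with loss of heterozygosity (LOH, loss of the remaining normal allele). Its other library received an siRNA against p53, so both libraries are 1 line and no other line was sequenced. The genotype label of the line does not write the replacing amino acid, and reading it as R245W rests on the labels naming no other change of that codon. The R245W tumours are primary tumours of p53R245W/+ mice, which carry 1 mutant and 1 normal Trp53 allele in the germ line, of a strain given as a mix of C57BL/6J and 129S/SvJae. They were snap frozen and crushed whole, and the labels give neither their site nor the sex or age of the mice. The tumour of origin of the line is not given either, so it may or may not be 1 of the 3. Nothing in the labels says that the 3 tumours came from separate mice, so their spread may be partly technical.

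A tumour piece holds malignant cells together with macrophages, lymphocytes, blood, vessels, osteoclasts (bone-resorbing cells of the monocyte lineage) and bits of adjoining muscle. A cultured line holds descendants of the malignant cells, growing on plastic in serum. In bone, osteoblasts mature under the transcription factors Runx2 and Sp7, secrete type I collagen and then mineral-binding proteins such as bone sialoprotein. Mutant p53 proteins have lost most of the ability to switch on the usual p53 target genes and often accumulate in tumour cells.

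Total counts were 64078428 and 73352548 in the line (control, then p53 siRNA) and 22435840, 21964474 and 23956389 in the R245W tumours. Below, values of the line are given in that order and those of the tumours as replicates 1, 2 and 3, in CPM (counts scaled to the same total in every library). A count of 3, taken as the limit of detection, was 0.0468 and 0.0409 CPM in the line and 0.125 to 0.137 CPM in the tumours, and this covers counting error only. The 10 most abundant genes of each library took 8.04% and 8.20% of the counts in the line, against 19.97%, 20.6% and 26.6% in the tumours. The line and tumour libraries also differ in title prefix, depth and starting material, so cell culture, library preparation and sequencing run cannot be told apart here.

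The targeted gene, Trp53 itself (chromosome 11, 69580359 to 69591873, GRCm38), had 94.9 and 30.6 CPM in the line and 57.5, 74.0 and 61.9 CPM in the R245W tumours. The control library lay above the 3 tumours and the siRNA library below them. Neither difference passed, with a log2 fold of 0.61 ± 0.44 (SE) and an adjusted p of 0.29 for the control library, and of -0.95 and 0.13 for the siRNA library. Cdkn1a, which encodes the cell cycle inhibitor p21 and is a direct target of normal p53, had 12.9 and 3.65 CPM in the line, against 62.0, 102 and 94.3 CPM in the tumours. It was lower in the line, by a log2 fold of -2.69 ± 0.86 (adjusted p = 0.022, edgeR) for the control library.

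Each line library was compared with the 3 R245W tumours in a single edgeR model of all 20 libraries, in which the spread between tumours of a genotype stands for the error. The model also held osteosarcomas of p53+/- (4), p53R172H/+ (6) and p53R270H/+ (5) mice, whose spread enters that error. The p-values therefore say whether this line lies outside the spread of tumours, and nothing about other lines. Of 18657 genes tested, the control library was higher in 3082 (16.5%) and lower in 3621 (19.4%) at an adjusted p under 0.05. The siRNA library was higher in 3479 (18.6%) and lower in 3889 (20.8%). Here a gene is called higher or lower when it passed in both comparisons in the same direction. That held for 2951 higher genes (15.8%) and 3352 lower genes (18%), which hold 94.0% of the genes called with the control library. These shares are the background for each list described here. For single genes, a call or pass lost or gained without a tumour refers to the control library, while list counts use both libraries. Counts from DESeq2, from a filter at 5 CPM and from a fit of only the 5 libraries, whose error rests on the 3 R245W tumours alone, are given beside a list where they move a count of 2 or more by over 1.5 times. The 2 comparisons share their tumours, and the 2 libraries share their cells, so the second adds no independent line.

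The difference was not even in kind. Among the genes called lower, 2806 of 3352 differed by 4-fold or more, against 1139 of 2951 among those called higher. Of the lower genes, 221 had no count in either line library and 577 stood at or under 3 counts in both. Of the higher genes, 95 had no count in any of the 3 tumours. Both line libraries lay above all 3 tumours for 6665 genes (35.7%) and below all 3 for 7308 (39.2%), and they lay within the tumour range for 3120. All 2951 genes called higher lay above the 3 tumours, and 3335 of those called lower lay below them. Over all genes tested the median log2 fold was -0.05.

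The 12 largest differences downwards, by the naming rule, included genes of haemoglobin, vessels, bone matrix and osteoclasts. They were Hbb-bs, Gucy1a1, Abcc9, Hba-a1, Ibsp, Eln, Car3, Tie1, Calcr, Gpihbp1, Heyl and Col22a1. Hbb-bs and Hba-a1, which encode adult haemoglobin chains, had no count in the line, against 282, 480 and 61.1 CPM and 119, 181 and 29.1 CPM in the R245W tumours. They were at least 5860-fold and 2341-fold lower in the line, taking 3 counts of the control library as the floor. Hba-a1 has a near-identical neighbour, Hba-a2, and reads of the pair may be split between them. Gucy1a1, a subunit of the nitric oxide receptor guanylate cyclase, also had no count in the line, against 235, 302 and 191 CPM, and was at least 5180-fold lower (adjusted p = 4.3e-05). Car3, a carbonic anhydrase abundant in muscle and fat, had 1 and 5 counts in the line (0.0156 and 0.0682 CPM), against 313, 302 and 263 CPM. Eln, which encodes elastin, had 0 and 0.0545 CPM in the line, against 153, 9.74 and 85.9 CPM. Gpihbp1, which anchors lipoprotein lipase to capillaries, had no count in the line, against 35.8, 62.5 and 18.1 CPM, and was at least 829-fold lower. Col22a1, a collagen of tissue junctions, had 0.0624 and 0.205 CPM in the line, against 291, 51.8 and 1154 CPM.

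Most listed genes of the osteoblast programme were lower in the line, and several matrix genes of mineralizing bone were close to absent from it. Of 18 listed osteoblast genes, all tested, 11 were lower, none was higher and 15 lay below all 3 tumours. The list median log2 fold was -4.20, against -0.05 over all genes. In bulk samples fewer cells of a type and less RNA per cell cannot be told apart, which holds for every tumour value here. Ibsp (bone sialoprotein, chromosome 5, 104299171 to 104311469, GRCm38) had 0.14 and 0.354 CPM in the line, against 5168, 3267 and 2598 CPM in the R245W tumours. That is 26186-fold lower in the control library, with an exact Poisson 95% interval of 13794 to 57266 that rests on the control library's 9 counts. The log2 fold was -14.58 ± 1.504 (adjusted p = 7e-06, edgeR) for the control library and -13.19 for the siRNA library. The interval leaves out the siRNA library's 26 counts. The lowest of the 15 tumours of other genotypes had 1308 CPM.

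The transcription factors of the osteoblast lineage were lower and still well counted. Runx2 had 52.4 and 42.3 CPM in the line, against 251, 330 and 270 CPM in the tumours (log2 fold -2.39 ± 0.50, adjusted p = 0.0019). Sp7, which acts after Runx2, had 15.1 and 21.6 CPM, against 151, 347 and 214 CPM. For both genes the 2 line libraries lay below all 3 tumours, as they did for 39.2% of all genes. Dlx5, a further factor of skeletal development, was lower as well, with a log2 fold of -2.64, and lost its call without tumour 1 or tumour 3. Alpl, the alkaline phosphatase of mineralizing cells, had 186 and 248 CPM in the line, against 1168, 933 and 840 CPM. Pth1r, the parathyroid hormone receptor, had 5.20 and 6.83 CPM, against 301, 236 and 177 CPM.

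Both chains of type I collagen were lower in the line and still abundant there. Col1a1 had 1985 and 2128 CPM in the line, against 41017, 13729 and 48958 CPM in the tumours (log2 fold -4.06 ± 1.33, adjusted p = 0.025). Col1a2 had 5249 and 5965 CPM, against 39346, 14798 and 62181 CPM, and its call was lost without R245W tumour 3. Late genes split. Dmp1, a matrix protein of osteocytes (osteoblasts embedded in bone), had 2 and 5 counts in the line (0.0312 and 0.0682 CPM), against 38.3, 27.2 and 275 CPM, and was lower. Bglap, which encodes osteocalcin and has near-identical copies, had 0.25 and 0.15 CPM, against 9.32, 1.09 and 5.64 CPM, and did not pass. Spp1 (osteopontin), made by osteoblasts, osteoclasts and macrophages alike, had 651 and 797 CPM in the line, against 1234, 459 and 1449 CPM, inside the tumour range. Without each R245W tumour in turn, 9, 12 and 9 of the osteoblast genes were called lower.

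**Figure D1:**
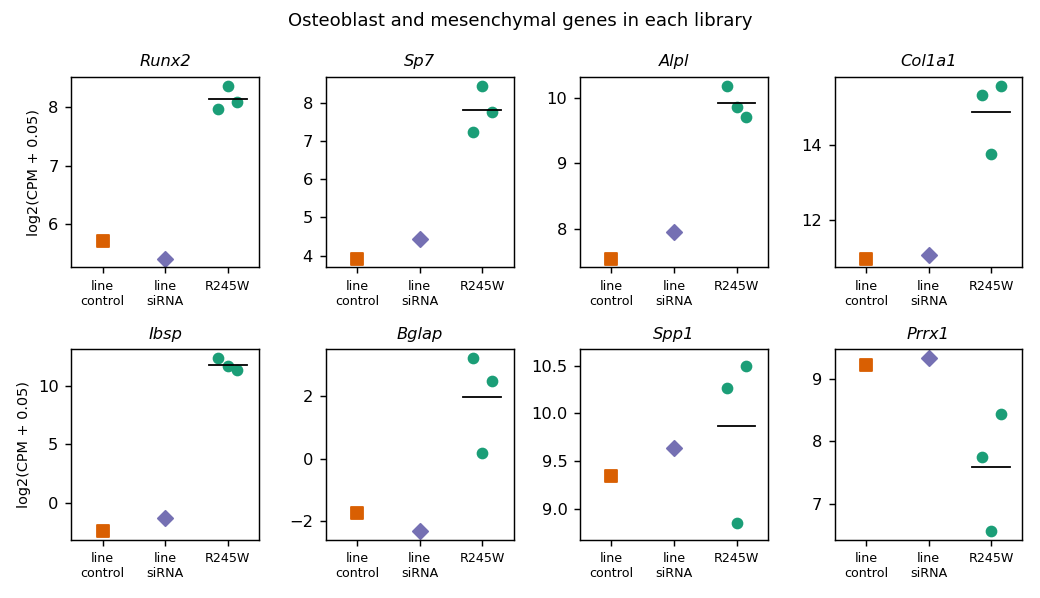
Each panel shows 1 gene as log2 of CPM plus 0.05 (vertical axis, own scale per gene) in the control library of the line (square), its p53 siRNA library (diamond) and the 3 R245W tumours (circles, with a bar at their mean). Ibsp, Runx2, Sp7, Alpl, Col1a1 and Bglap stand below all 3 tumours in the line, Spp1 stands between them and Prrx1 above them.

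Of 17 general mesenchymal genes tested, 4 were higher and 1 was lower, beside 15.8% higher and 18% lower among all genes. Prrx1, a transcription factor of early limb mesenchyme, had 594 and 642 CPM in the line, against 217, 95.2 and 345 CPM in the tumours, above all 3 without passing (adjusted p = 0.089). Vim, the mesenchymal filament protein vimentin, had 1839 and 2036 CPM, against 1070, 1758 and 750 CPM, and did not pass either. Cdh11, the osteoblast cadherin, was higher, with 660 and 725 CPM against 333, 198 and 348 CPM, and lost its call without any 1 of the tumours. Twist2, a factor that restrains osteoblast maturation, had 3.60 and 3.42 CPM, against 0, 0.0911 and 0.0417 CPM, and was higher. Cdh2 (N-cadherin) was lower, with 99.1 and 89.5 CPM against 329, 298 and 406 CPM. The higher count was 2, 3 and 1 without each tumour in turn, 1 at 5 CPM and 2 in the fit of only the 5 libraries.

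Of 13 fibroblast genes tested, 1 was lower and none was higher. That gene was Fap, a surface protease of activated stromal fibroblasts, with 0.297 and 0.464 CPM in the line, against 355, 85.3 and 274 CPM in the tumours (log2 fold -9.57 ± 1.51, adjusted p = 0.00024). Pdgfra, a growth factor receptor of mesenchymal cells, had 145 and 160 CPM, against 252, 329 and 299 CPM, without passing. Of 11 chondrocyte genes tested, 4 were lower, and the largest of these by level in the tumours was Col11a2. It had 1.65 and 1.53 CPM in the line, against 811, 356 and 1964 CPM, a log2 fold of -9.24 ± 1.93. At 5 CPM 1 of 6 chondrocyte genes was lower. Sox9, the master factor of cartilage, had 18.1 and 16.2 CPM, against 34.7, 0.865 and 5.43 CPM, inside the range of tumours that differed widely among themselves.

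Genes of macrophages and of leukocytes in general were lower in the line nearly throughout. All 16 macrophage genes were lower and lay below all 3 tumours, with a list median log2 fold of -6.25, and all 16 kept that call without any 1 tumour. Their summed level was 43.7 and 44.5 CPM in the line, against 2246, 2457 and 2180 CPM in the R245W tumours, which were close to each other. Csf1r, the receptor through which the growth factor CSF1 sustains macrophages, had 2.98 and 3.26 CPM, against 555, 204 and 731 CPM. C1qa, a complement chain made by tissue macrophages, had 0.187 and 0.354 CPM, against 155.02, 251 and 186 CPM (log2 fold -9.96 ± 1.15). None of the 16 was at 0 in both line libraries. The highest of them in the line was Lyz2, lysozyme, with 20.6 and 20.5 CPM, against 470, 828 and 291 CPM.

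Of 13 pan-leukocyte genes, 12 were lower, among them Ptprc (the surface phosphatase CD45), with 0.718 and 0.409 CPM in the line, against 130, 102 and 174 CPM in the tumours. The exception was Arhgdib, a regulator of small GTPases best known from blood cells, with 50.7 and 59.2 CPM in the line, against 16.9, 34.9 and 17.99 CPM. It lay above all 3 tumours without passing (adjusted p = 0.12), and passed without R245W tumour 2 (adjusted p = 0.044). Lymphocyte genes were low in the tumours too. Of 16 T and NK cell genes, 8 passed the CPM filter and 5 of these were lower, while 8 of the 16 had no count in either line library. Their summed level was 9.38 and 8.26 CPM in the line, of which Gzmb alone made 7.32 and 6.42 CPM, against 17.5, 12.2 and 30.5 CPM in the tumours. Gzmb (granzyme B) thus lay above all 3 tumours, at 0.312, 0.137 and 0.459 CPM, and did not pass (adjusted p = 0.061). Without each tumour in turn 2, 5 and 1 of the T and NK cell genes were lower, 1 in the fit of only the 5 libraries and 2 of 3 at 5 CPM. Of 12 B and plasma cell genes 6 were tested and 2 were lower, and Jchain, the joining chain of secreted antibodies, was one of them, with no count in the line and 6.82, 0.41 and 11.2 CPM in the tumours. That count was 1, 3 and 1 without each tumour, 4 with DESeq2 and 1 at 5 CPM.

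**Figure D2:**
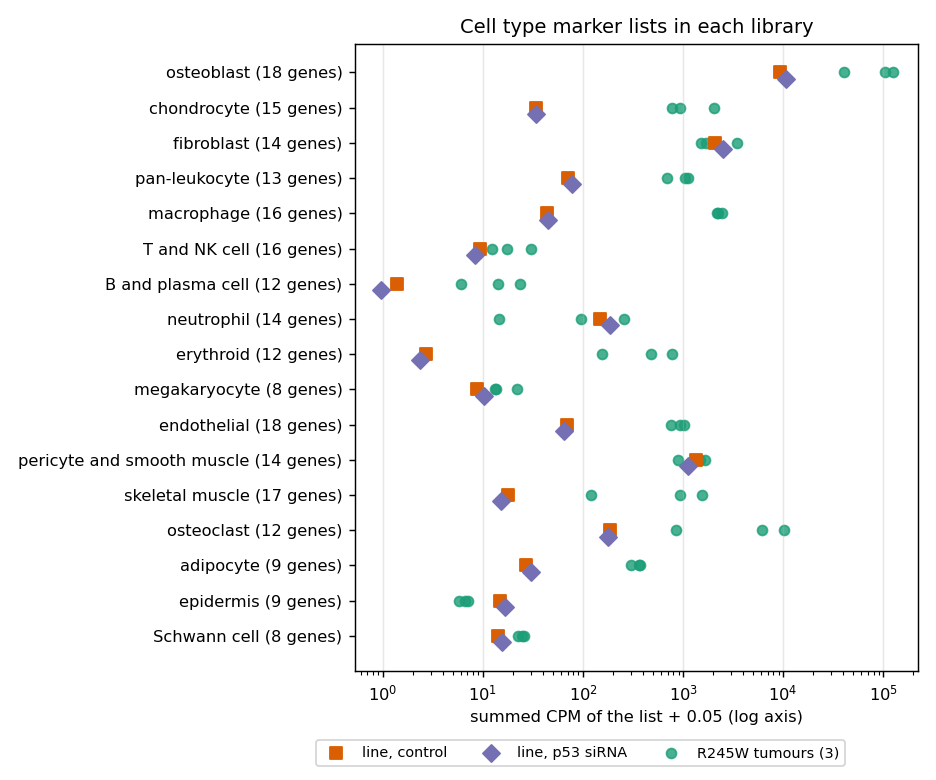
Summed CPM of each cell type list (horizontal log axis, with 0.05 added) in the line control library (squares), the line p53 siRNA library (diamonds, drawn slightly lower) and the 3 R245W tumours (circles). The macrophage sums of the line, 43.7 and 44.5 CPM, stand left of the tumour sums of 2180 to 2457 CPM, while the fibroblast and pericyte sums of the line stand among the tumours.

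Neutrophil genes differed more among the tumours, and so did the summed level of erythroid genes, at 477, 777 and 156 CPM, mostly haemoglobin genes. The standard deviation of the 3 tumours' list medians, in log2 CPM, was 1.96 for neutrophil genes and 0.20 for erythroid genes. Of 13 neutrophil genes tested, 10 lay below all 3 tumours, beside 39.2% of all genes. Those called lower were 2, Cxcr2 and Chil3, beside 18% of all genes, and Cxcr2 lost its call without tumour 3. S100a9, a calcium-binding protein abundant in neutrophils, had no count in the line, against 14.8, 1.09 and 31.3 CPM, and passed only without tumour 2 (adjusted p = 0.062 with all 3). Without each tumour 2, 4 and 1 of the list were lower, while DESeq2 had 8 of the 13 lower and the filter at 5 CPM 1 of 8. Lcn2 (lipocalin 2), on the same list and also an acute-phase gene, had 143 and 181 CPM in the line, against 6.91, 0.82 and 18.9 CPM, and did not pass (adjusted p = 0.099). Of 11 erythroid genes tested, all lay below the 3 tumours and 5 were lower: Hbb-bs, Hbb-bt, Hba-a1, Hba-a2 and Alas2, the first enzyme of haem synthesis in red cells. With DESeq2 9 were lower. Alas2 was the only 1 of the 5 counted in the line, with 2.01 and 1.46 CPM against 23.8, 33.7 and 15.9 CPM. Of 5 megakaryocyte genes tested, Pf4 was lower. Without R245W tumour 2 none of the list was called with both line libraries.

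Endothelial genes were lower to a degree that the 3 tumours hardly varied around. Of 18 listed genes, 17 were lower in the line and lay below all 3 tumours, and the list median log2 fold was -7.66, or -7.21 with genes at 0 in both line libraries set to their lower bound. Pecam1, the adhesion molecule CD31, had 0.343 and 0.504 CPM in the line, against 110, 153 and 77.2 CPM in the tumours (log2 fold -8.31 ± 0.83, adjusted p = 5.8e-06). Cdh5 (VE-cadherin) had 0.109 and 0.0682 CPM, against 189, 221 and 111 CPM. Tie1, Robo4 and Sox17 had no count in either line library. Tie1, an orphan receptor of vessels, had 45.9, 56.0 and 35.6 CPM in the tumours and was at least 979-fold lower in the line. The exception was Eng (endoglin), also made by mesenchymal cells, with 56.9 and 53.6 CPM against 179, 48.9 and 137 CPM.

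The vessel wall list split by gene. Of 14 pericyte and smooth muscle genes, 7 were lower and 3 were higher, beside 18% and 15.8% of all genes, and 4 were not called. Several of the lower genes are used to mark pericytes. Rgs5, one of these, had 0.546 and 0.723 CPM in the line, against 62.9, 73.0 and 55.1 CPM in the tumours. Abcc9, the regulatory subunit of a vascular potassium channel, had no count in the line, against 220, 52.8 and 116 CPM, and was at least 2764-fold lower. Cspg4, Kcnj8, Notch3, Des and Mcam were also lower. The higher genes, Tagln, Cnn1 and Lmod1, encode contractile proteins, while other contractile genes of the list were not called. Tagln stood at 1.76 and 1.46 CPM in the line and lost its call without tumour 1 or tumour 3. Cnn1, calponin 1, had 13.05 and 7.08 CPM in the line, against 0.713, 0.865 and 0.543 CPM, and lost its call without R245W tumour 3. Acta2, smooth muscle actin, had 1000 and 763 CPM, against 123, 608 and 20.9 CPM, above all 3 tumours, and passed only without tumour 2 (adjusted p = 0.2 with all 3). Pdgfrb, the receptor of pericytes and of mesenchymal cells at large, had 304 and 320 CPM, against 316, 265 and 241 CPM, and did not pass. Without each tumour in turn 1, 3 and 1 of the list were higher and 7, 7 and 7 lower, and at 5 CPM 1 was higher.

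Most listed genes of the Notch pathway, in which ligands on a cell activate receptors on its neighbour, were lower in the line. Of 11 genes 9 were lower and none was higher, with a median log2 fold of -6.50. Their summed level differed less, at 464 and 412 CPM in the line, mostly Notch2, against 792, 798 and 884 CPM in the tumours. Among the receptors, Notch1 had 3.26 and 2.69 CPM in the line, against 112, 68.1 and 85.4 CPM in the R245W tumours (log2 fold -4.71 ± 0.68). Notch2 had 425 and 376 CPM, against 438, 620 and 640 CPM, and did not pass. Among the ligands, Dll4, a ligand of sprouting vessels, had 0 and 0.0409 CPM, against 12.1, 13.8 and 15.4 CPM. Jag1 had 29 and 26 CPM, against 81.0, 20.9 and 41.1 CPM, inside the tumour range. Among the target genes, Heyl had no count in the line, against 55.0, 15.1 and 31.3 CPM, and was at least 722-fold lower, while Hes1 had 4.18 and 4.94 CPM against 27.1, 19.5 and 20.3 CPM. Several of these genes are also used in vessels, and the endothelial list moved with them in the same direction; its part in the result was not tested.

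Osteoclast and skeletal muscle genes differed widely among the tumours, and most of them lay below all 3 in the line. All 12 osteoclast genes lay below the 3 tumours and 8 were lower. Their summed level was 187 and 178 CPM in the line, against 10161, 847 and 6114 CPM in the R245W tumours, of which tumour 2 was the lowest for every gene given here. Acp5, the tartrate-resistant phosphatase of osteoclasts, had 0.25 and 0.314 CPM in the line, against 1966, 114 and 1396 CPM (log2 fold -12.09 ± 3.52, adjusted p = 0.014). Calcr, the calcitonin receptor, had 0 and 0.0136 CPM, against 63.9, 3.46 and 51.0 CPM. Ctsk, the collagen-degrading cathepsin K, had 93.7 and 87.3 CPM, against 2393, 219 and 1572 CPM, and did not pass (adjusted p = 0.13). Without each tumour in turn 5, 10 and 6 of the osteoclast genes were lower, and 5 in the fit of only the 5 libraries. Of 16 skeletal muscle genes tested, 15 lay below all 3 tumours, beside 39.2% of all genes. Those called lower were 2, Myl1 and Ttn, beside 18% of all genes. That count was 1, 2 and 1 without each tumour in turn, and 12 with DESeq2. Ttn, the giant sarcomere protein titin, had 5.37 and 5.21 CPM in the line, against 488, 55.2 and 848 CPM, and lost its call without tumour 1 or tumour 3. Myh4, a fast myosin, had no count in the line, against 101, 3.32 and 195 CPM, and did not pass (adjusted p = 0.08). The muscle sums were 17.6 and 15 CPM in the line, against 924, 120 and 1547 CPM.

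Of 5 adipocyte genes tested, Car3 was lower, and of 4 Schwann cell genes Mbp, myelin basic protein, was lower, with 4.34 and 3.39 CPM in the line, against 15.02, 18.5 and 16.7 CPM in the tumours. None of 4 epidermal genes tested passed. The basal keratin Krt5 had no count in the line, against 0.0891, 0.137 and 0 CPM in the tumours.

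Genes of antigen presentation were lower or did not pass, with a median log2 fold of -6.05 for class II and of -1.65 for class I. All 7 class II genes tested were lower. H2-Aa, a class II chain, had 2 and 0 counts in the line (0.0312 and 0 CPM), against 96.3, 72.8 and 261 CPM in the R245W tumours. Cd74, the invariant chain, had 5.84 and 6.54 CPM, against 248, 198 and 762 CPM. Ciita, the factor that switches on class II genes, had 0.421 and 0.613 CPM, against 10.4, 7.97 and 28.9 CPM. Without R245W tumour 3 the class II count was 4. Of 11 class I genes 4 were lower: H2-K1, Psmb8, Psmb9 and Nlrc5, the factor that switches on class I genes. Psmb8, an immunoproteasome subunit, lost its call without tumour 1. H2-K1 had 100 and 106 CPM in the line, against 883, 229 and 487 CPM, and lost its call without tumour 1 or tumour 3. B2m, the shared light chain, had 445 and 442 CPM, against 2688, 732 and 950 CPM, below all 3 tumours without passing (adjusted p = 0.13). Without each tumour 2, 6 and 3 class I genes were lower, and 1 in the fit of only the 5 libraries. Class II genes are made chiefly by macrophages, dendritic and B cells. The macrophage list had 16 of 16 genes lower, and the B and plasma cell list 2 of 6 tested. Dendritic cells had no list, and the part of these cells in the result was not tested.

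Inflammatory chemokines and an acute-phase gene were among the largest differences upwards. The 12 genes named by rule were Cxcl5, Saa3, Prl2c2, Cxcl1, Styk1, Sema3e, Nrn1, Ccl7, Nrg1, Il6, Nos2 and Ccl11. Cxcl1 and Cxcl5 encode ligands of the neutrophil receptor CXCR2. Cxcl1 (chromosome 5, 90891241 to 90893115, GRCm38) had 749 and 623 CPM in the line, against 0.579, 3.92 and 0.626 CPM in the R245W tumours (log2 fold 8.81 ± 1.17, adjusted p = 5.7e-05). The highest of the 15 tumours of other genotypes had 2.17 CPM. Cxcl5 had 249 and 302 CPM in the line and no count in any R245W tumour, which makes it at least 1892-fold higher in the line against a floor of 3 counts per tumour library. Saa3, a serum amyloid made in inflammation, had 942 and 1040 CPM in the line, against 0.178, 0.683 and 0.376 CPM. Il6, the cytokine interleukin 6, had 112.7 and 86.9 CPM, against 1.65, 0.455 and 0.0835 CPM (log2 fold 7.32 ± 1.54, adjusted p = 0.002). Nos2, inducible nitric oxide synthase, had 237 and 178 CPM, against 2.32, 2.32 and 2.505 CPM.

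Promoters of Cxcl1, Il6 and Saa3 are shown because Cxcl1 and Il6 are textbook targets of the transcription factor NF-kB. The 120 bases run 5′ to 3′ on the gene's strand and end 1 base before the RefSeq start, in build GRCm38.p6. Capitals mark matches to a stringent form of the NF-kB site, GGGA and TTCC with any 2 bases between them, searched on both strands.
Cxcl1, chr5:90891125-90891244, plus strand: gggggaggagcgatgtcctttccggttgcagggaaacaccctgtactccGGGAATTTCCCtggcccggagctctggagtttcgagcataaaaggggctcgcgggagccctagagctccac
Il6, chr5:30012994-30013113, plus strand: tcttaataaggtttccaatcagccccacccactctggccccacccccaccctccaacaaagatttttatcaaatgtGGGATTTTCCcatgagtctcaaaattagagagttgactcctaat
Saa3, chr7:46715677-46715796, minus strand: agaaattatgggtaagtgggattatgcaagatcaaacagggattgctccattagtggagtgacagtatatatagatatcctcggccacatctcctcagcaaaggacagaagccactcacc
The Cxcl1 match starts 71 bases before the gene's start and holds 2 overlapping matches, and the Il6 match starts 44 bases before. Both genes were chosen as known targets, so the matches are a description only. Across all 27025 genes of the promoter table, 441 (1.63%) held the motif in their 300 bases, a longer window than the 120 bases shown. Of the 12 genes named upwards by rule, 4 had an entry in that table. No binding was measured in these libraries.

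Of 14 cytokine and chemokine genes, 7 were higher in the line and none was lower, also without any 1 tumour. Besides Cxcl1, Cxcl5 and Il6 these were Ccl2, Ccl7, Ccl5 and Csf1. Ccl2, a monocyte attractant, had 463 and 381 CPM, against 4.86, 7.97 and 4.93 CPM in the tumours (log2 fold 6.34 ± 0.92). Ccl7, its neighbour on chromosome 11 and also a monocyte attractant, had 385 and 302 CPM, against 2.59, 1.78 and 2.67 CPM. Csf1, the growth factor of macrophages and osteoclast precursors, had 1198 and 1084 CPM, against 252, 232.3 and 272 CPM (log2 fold 2.30 ± 0.59, adjusted p = 0.007). Its receptor Csf1r was lower in the same comparison, as given above. Cxcl12, the chemokine of bone marrow stroma, had 456 and 497 CPM, against 130, 22.9 and 176 CPM, above all 3 tumours without passing. Of the osteoclast regulators, Tnfsf11 (RANKL) had 3.81 and 4.46 CPM, against 22.6, 5.01 and 12.5 CPM, and its decoy receptor Tnfrsf11b had 12.9 and 10.8 CPM, against 20.3, 84.3 and 45.1 CPM. Neither passed.

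**Figure D3:**
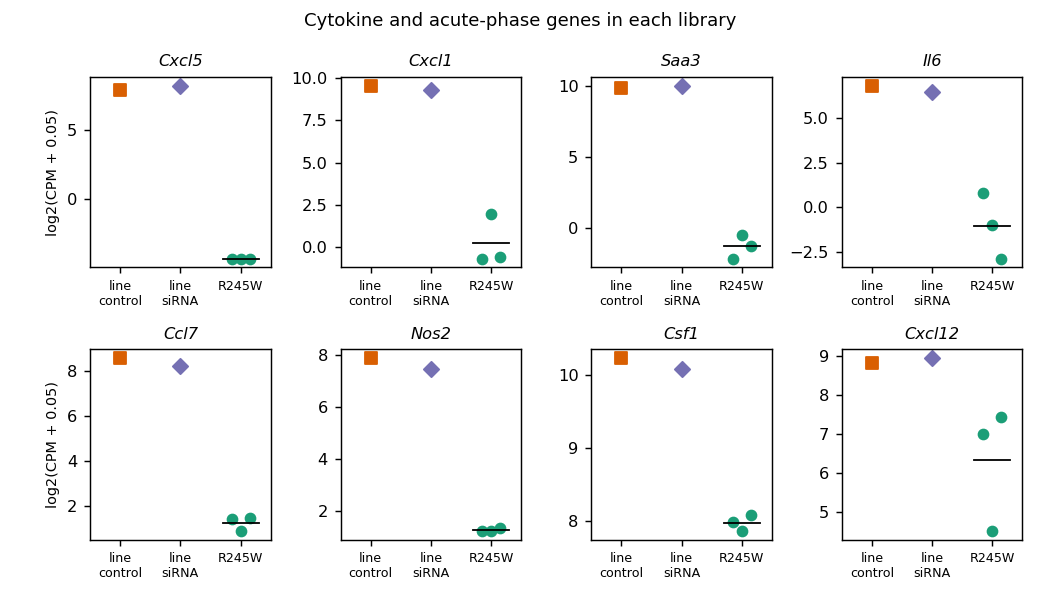
Each panel shows 1 gene as log2 of CPM plus 0.05 (vertical axis, own scale per gene) in the line control library (square), the line p53 siRNA library (diamond) and the 3 R245W tumours (circles, bar at their mean). All 8 genes stand above the 3 tumours in both line libraries, with Cxcl5 at 249 and 302 CPM against no count, and Cxcl12 did not pass the test.

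Other genes among the 12 encode growth factors and neuronal guidance proteins. Nrg1, a ligand of ERBB receptors, had 37.5 and 37.7 CPM in the line, against 0.134, 0.228 and 0.334 CPM in the tumours. Sema3e, a guidance ligand that also acts on vessels, had 64.7 and 60.9 CPM, against 0.312, 0.319 and 0.0417 CPM. Nrn1, neuritin, had 39.0 and 46.2 CPM, against 0, 0.0911 and 0.459 CPM. Styk1, a kinase-like membrane protein, had 43.5 and 44.6 CPM, against 0.267, 0.0911 and 0.0417 CPM. Ccl11, the eosinophil attractant eotaxin, had 24.5 and 32.8 CPM, against 0.0891, 0.0911 and 0.543 CPM. Prl2c2, a proliferin with several near-identical copies between which reads may be split, had 26.5 and 40.7 CPM, against 0, 0.0911 and 0 CPM.

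Most listed cell division genes were higher in the line. Of 23 DNA replication genes 21 were higher and all 23 lay above the 3 tumours, with a median log2 fold of 1.76. Mcm5, of the replicative helicase, had 292 and 311 CPM in the line, against 52.8, 119 and 49.8 CPM (log2 fold 2.03 ± 0.46, adjusted p = 0.0034). Prim1, the primase subunit, had 71.5 and 73.5 CPM, against 11.9, 24.5 and 8.35 CPM. R245W tumour 2 was the highest tumour for these genes. Leaving out each tumour in turn left 12, 20 and 12 of the 23 called, Mcm2 and Rfc5 losing the call without tumour 1 or tumour 3. The fit of only the 5 libraries called 4 of the 23. Of 24 mitosis genes 15 were higher, 21 lay above the 3 tumours and none was lower. Cdc20, which activates the anaphase ligase, had 208 and 234 CPM, against 16.7, 48.1 and 34.8 CPM (log2 fold 2.69 ± 0.70, adjusted p = 0.0075). Top2a had 727 and 771 CPM, against 178, 258 and 131 CPM. Ccnb1, cyclin B1, was higher and lost the call without tumour 1 or tumour 3. Mki67, the gene of the Ki-67 antigen, did not follow: it had 232.3 and 289 CPM, against 344, 553 and 253 CPM, with a log2 fold of -0.68 and an adjusted p of 0.43. Without each tumour the mitosis count was 11, 16 and 10.

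Among 18 cell cycle regulators 4 were higher and 1 was lower, beside 15.8% and 18% of all genes. Both genes of the Cdkn2a locus were higher. Cdkn2a (chromosome 4, 89274471 to 89294653, GRCm38), which encodes the inhibitors p16 and p19Arf, had 212 and 242 CPM in the line, against 28.7, 15.2 and 42.0 CPM in the tumours (log2 fold 2.95 ± 0.68, adjusted p = 0.0035). Its neighbour Cdkn2b, the inhibitor p15, had 119 and 127 CPM, against 20.5, 7.06 and 20.6 CPM. Ccne1, cyclin E1, had 74.2 and 81.4 CPM, against 12.6, 8.65 and 10.9 CPM. Rb1, the retinoblastoma protein, was the gene called lower, with 15.5 and 13.8 CPM against 58.0, 51.0 and 59.7 CPM (log2 fold -1.80 ± 0.54, adjusted p = 0.016). Myc had 315 and 247 CPM, against 134, 378 and 226 CPM, inside the tumour range.

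Targets of p53 gave no common direction. Of 20 genes 2 were higher, 2 were lower and 16 were not called, beside 15.8% higher and 18% lower among all genes. The median log2 fold was 0.46. Lower were Cdkn1a, given above, and Trp53inp1, which lost the call without tumour 1 or tumour 3. Higher were Fas, a death receptor, with 25.5 and 24.8 CPM against 1.60, 2.64 and 1.59 CPM, and Plk2, a stress kinase, with 166 and 120 CPM against 23.5, 23.4 and 31.6 CPM. Mdm2, the ligase that degrades p53, had 118 and 83.8 CPM, against 49.1, 57.8 and 49.5 CPM. It passed with the control library (log2 fold 1.23 ± 0.32, adjusted p = 0.0075) and not with the siRNA library (adjusted p = 0.056). Sesn2, Gdf15 and Ccng1 likewise passed with the control library alone, Ccng1 losing that call without tumour 2 or tumour 3. Sesn2, an antioxidant regulator, had 109 and 53.9 CPM in the line, against 20.5, 26.1 and 26.1 CPM. Gdf15, a secreted stress factor, had 12.3 and 5.53 CPM, against 1.78, 1.91 and 1.59 CPM. Without each tumour in turn 2, 3 and 2 of the list were higher and 1, 2 and 1 lower, and 4 and 1 in the fit of only the 5 libraries. The 2 line libraries have no replicate, so their difference carries no test.

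**Figure D4:**
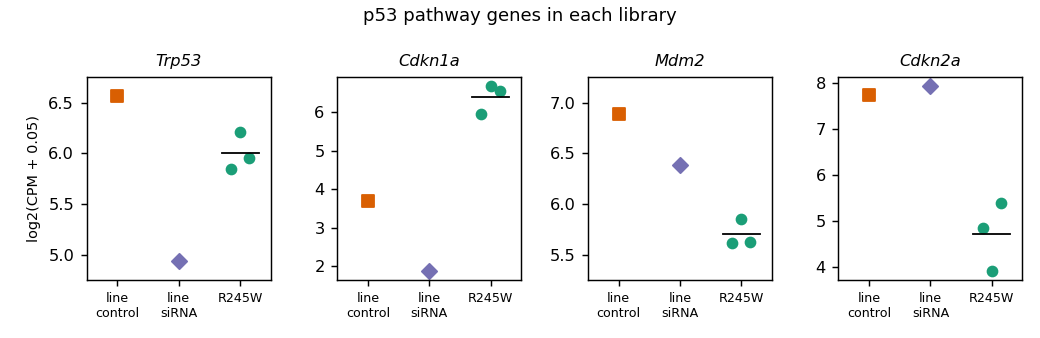
Each panel shows 1 gene as log2 of CPM plus 0.05 (vertical axis, own scale per gene) in the line control library (square), the line p53 siRNA library (diamond) and the 3 R245W tumours (circles, bar at their mean). Trp53 stands above the tumours in the control library, at 94.9 CPM, and below them in the siRNA library, at 30.6 CPM, while Cdkn1a stands below and Cdkn2a above the tumours in both.

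In the metabolic and stress lists many genes were higher in the line and none was lower. Of 19 genes of cholesterol synthesis and its control 14 were higher, with a median log2 fold of 1.84. Mvd, of the mevalonate pathway, had 45.2 and 68.2 CPM in the line, against 8.83, 12.9 and 8.06 CPM in the tumours (log2 fold 2.23 ± 0.39, adjusted p = 0.00055). Sc5d, a late enzyme of the pathway, had 165 and 176 CPM, against 35.9, 28.6 and 13.3 CPM. Sqle, the squalene epoxidase, lost its call without any 1 tumour. The fit of only the 5 libraries had 8 of the 19 higher. Of 12 targets of NRF2, the factor of the oxidant response, 8 were higher, or 4 in the fit of only the 5 libraries, and all lay above the 3 tumours. Nqo1, a quinone reductase, had 31.8 and 42.3 CPM, against 1.52, 2.09 and 2.05 CPM (log2 fold 4.12 ± 0.87, adjusted p = 0.0021).

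Of 18 glycolysis and hypoxia genes 10 were higher. Pkm, pyruvate kinase, had 4824 and 5549 CPM in the line, against 1122, 1222 and 656 CPM, and lost its call without tumour 3. Slc2a1, the glucose transporter GLUT1, had 99.2 and 122 CPM, against 23.04, 27.2 and 11.1 CPM, and lost its call without any 1 tumour. Pgk1 had 421 and 429 CPM, against 20.01, 36.3 and 13.1 CPM, though this gene and Gapdh have processed copies in the genome that may take part of their reads. Of the hypoxia genes, Adm (adrenomedullin) was higher, with 21.3 and 25.3 CPM against 1.47, 4.96 and 1.67 CPM. Vegfa, the vessel growth factor, had 207 and 170 CPM, against 99.9, 113.2 and 112 CPM, above all 3 tumours without passing. Leaving out each tumour in turn left 3, 9 and 3 of the 18 called, the fit of only the 5 libraries 6, and the filter at 5 CPM 5 of 16. Of 18 genes of the unfolded protein and integrated stress responses 8 were higher, among them Atf4, Trib3 and Chac1. Atf4, the central factor of the integrated stress response, had 640 and 497 CPM, against 145, 204 and 147 CPM. That count was 5, 5 and 1 without each tumour, 1 at 5 CPM and 4 in the fit of only the 5 libraries. Of 19 ribosome biogenesis genes all lay above the 3 tumours and 11 were higher, with 9, 15 and 9 without each tumour and 3 in the fit of only the 5 libraries. Rrp9 had the highest log2 fold, 2.41 ± 0.56. Of 15 nuclear genes of the respiratory chain 5 were higher, with 3 without R245W tumour 3, 3 at 5 CPM and 1 in the fit of only the 5 libraries.

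**Figure D5:**
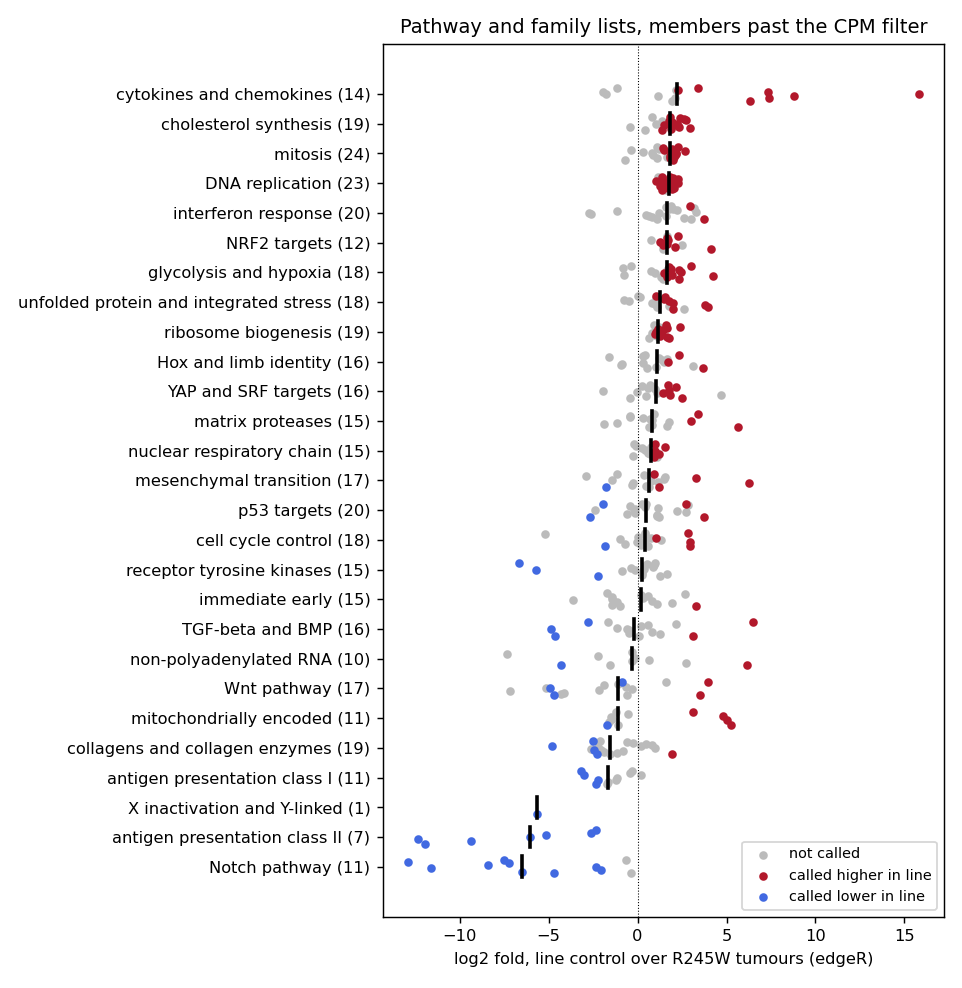
Log2 fold of the line control library over the R245W tumours (horizontal axis, edgeR) for each member of the pathway and family lists that passed the CPM filter, with the number tested in brackets. Red points are genes called higher and blue points genes called lower with both line libraries, grey points were not called, and black bars mark medians, from 2.23 for cytokines and chemokines to -6.50 for the Notch pathway.

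Of 16 targets of YAP and SRF, factors that respond to stiffness and to actin, 6 were higher and none was lower: Amotl2, Axl, Flna, Actn1, Tpm1 and Actg1. Tpm1, tropomyosin 1, had 2222 and 2200 CPM in the line, against 589, 545 and 423 CPM in the tumours (log2 fold 2.15 ± 0.44, adjusted p = 0.0017). Ccn2, a widely used YAP target, had 124 and 112 CPM, against 194, 239 and 83.7 CPM, inside the tumour range. Of 15 matrix protease genes and their inhibitors 3 were higher, beside 15.8% of all genes. Mmp3, stromelysin, had 40.8 and 28.8 CPM, against 0.267, 0.501 and 1.75 CPM (log2 fold 5.64 ± 1.26). Timp3, a metalloproteinase inhibitor, had 652 and 687 CPM, against 70.1, 133 and 47.6 CPM. Mmp13, a collagenase of bone, had 230 and 290 CPM, against 1245, 888 and 488 CPM, below all 3 tumours without passing (adjusted p = 0.46).

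Of 19 further collagen genes and collagen enzymes 4 were lower and 1 was higher, beside 18% and 15.8% of all genes. DESeq2 had 8 lower. The lower ones were the basement membrane collagens Col4a1, Col4a2, Col15a1 and Col18a1. Col4a1 had 100 and 109 CPM in the line, against 611, 529 and 395 CPM (log2 fold -2.30 ± 0.59, adjusted p = 0.0068). The higher one was Lox, the enzyme that crosslinks collagen, with 2756 and 2891 CPM, against 1067, 522 and 633 CPM. Col5a1, of a fibrillar collagen, had 655 and 664 CPM, against 2716, 1157 and 2157 CPM, below all 3 tumours, and passed only without R245W tumour 2.

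Among signalling families, receptor tyrosine kinases held 3 lower genes of 15 and none higher, beside 18% lower and 15.8% higher among all genes. Fgfr3, a growth factor receptor of cartilage and bone, had 1.11 and 2.44 CPM in the line, against 65.4, 55.6 and 57.9 CPM (log2 fold -5.69 ± 1.08, adjusted p = 0.00096). Fgfr2 had 52.2 and 61.4 CPM, against 186, 413 and 166 CPM. Kit, the receptor of mast and stem cells, had 0.125 and 0.0545 CPM, against 13.1, 13.8 and 13.1 CPM. Egfr had 58.7 and 71.4 CPM, against 40.8, 13.8 and 21.9 CPM, and Met had 48.4 and 47.5 CPM, against 26.7, 5.42 and 15.3 CPM, both above all 3 tumours without passing.

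In the TGF-beta and BMP family 3 of 16 genes were lower and 2 were higher, beside 18% and 15.8% of all genes. Tgfb1, the ligand stored in bone matrix, had 6.62 and 7.54 CPM in the line, against 124, 195 and 195 CPM (log2 fold -4.64 ± 0.49, adjusted p = 8.1e-06). Tgfbi, a matrix protein named for its induction by TGF-beta, had 3.07 and 4.19 CPM, against 84.0, 90.0 and 107 CPM, and was lower. Bmp2 was lower, with 2.76 and 1.73 CPM against 26.2, 17.5 and 14.9 CPM, and lost its call without tumour 1. Bmp4 was higher, with 199 and 211 CPM against 14.5, 44.0 and 13.2 CPM. Grem1, a secreted BMP inhibitor, was higher, with 157 and 136 CPM against 3.97, 0.319 and 1.09 CPM (log2 fold 6.51 ± 1.36, adjusted p = 0.0019).

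Of 17 Wnt pathway genes 3 were lower and 2 were higher, beside 18% and 15.8% of all genes. DESeq2 had 7 lower and the fit of only the 5 libraries 6, while at 5 CPM 1 of 14 was higher. Wif1, a secreted inhibitor of Wnt ligands often made by osteoblasts, had 2.67 and 3.91 CPM in the line, against 92.2, 91.6 and 71.3 CPM (log2 fold -4.94 ± 1.53, adjusted p = 0.019). Tcf7, a transcription factor of the pathway, had 5.63 and 5.97 CPM, against 106, 269 and 80.5 CPM. Dkk2, another secreted inhibitor, was higher, with 21.6 and 21.8 CPM against 1.65, 0.546 and 2.17 CPM, and Sfrp1 was higher and lost its call without any 1 tumour, which left 1 higher gene each time. Axin2, the common feedback target, had 7.07 and 10.5 CPM, against 11.7, 9.74 and 11.8 CPM, and did not pass.

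Hox and limb genes record a cell's position along the body and limb. Of 21 listed 16 passed the CPM filter. Of these 3 were higher, Hoxd9, Tbx15 and Shox2, beside 15.8% of all genes, and none was lower. Tbx15 lost its call without tumour 2 or tumour 3. Shox2, a factor of proximal limb bones, had 171 and 211 CPM in the line, against 27.3, 43.6 and 35.6 CPM (log2 fold 2.31 ± 0.69, adjusted p = 0.016), and lost its call without tumour 1. Hoxa10 had 40.1 and 46.7 CPM, against 17.7, 18.1 and 25.9 CPM, and did not pass. Of 20 interferon-induced genes 15 lay above all 3 tumours, yet 2 were higher, Isg15 and Bst2, and Isg15 lost its call without tumour 2 or tumour 3. Of the list 3, 1 and 1 were higher without each tumour in turn, 6 in the fit of only the 5 libraries and 1 at 5 CPM. Isg15 had 115 and 80.3 CPM, against 16.1, 2.6 and 7.89 CPM. Of 15 immediate early genes 1, Ier3, was higher, and 2, 2 and 1 without each tumour. Fos had 11.3 and 9.58 CPM, against 25.7, 14.3 and 29.3 CPM, and Egr1 had 13.1 and 9.43 CPM, against 23.5, 20.4 and 47.4 CPM, both below all 3 tumours without passing.

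Differences also followed chromosomes. Over genes of at least 1 CPM, the median log2 fold of the control library was 0.73 for 513 genes of chromosome X, 0.54 for chromosome 8 and 0.47 for chromosome 13. It was -0.47 for chromosome 6 and -0.36 for chromosome 1. On chromosome X 30.4% of these genes were higher and 9.55% lower, and on chromosome 6 the shares were 10.4% and 28.1%. Xist, the RNA that coats the inactive X chromosome of female cells, had 20.9 and 19.6 CPM in the line, against 1161, 1096 and 967 CPM in the R245W tumours (log2 fold -5.64 ± 1.05, adjusted p = 0.00084). The Y-linked genes Kdm5d, Eif2s3y, Ddx3y and Uty stood at or near 0 in all 5 libraries, with none above 0.0891 CPM. DNA copy number was not measured here.

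All genes of the mitochondrial chromosome together took 2.88% and 2.82% of counts in the line, against 4.65%, 4.25% and 3.43% in the tumours. The 13 listed protein-coding genes among them summed to 7497 and 7961 CPM, against 14686, 16117 and 9554 CPM. Of the 11 listed genes tested 4 were higher: mt-Nd3, mt-Co2, mt-Co3 and mt-Atp6. The most abundant of the 4, mt-Co3, had 8.96 and 15.2 CPM in the line, against 0.223, 0.592 and 0.167 CPM. These 4 have nuclear copies, and their counts are uncertain. At 5 CPM 2 of 9 were higher. mt-Nd5 was lower, with 310 and 290 CPM against 1187, 845 and 1124 CPM, and lost its call without tumour 1 or tumour 3. Of 10 RNAs without a poly(A) tail tested 1, Rn7s1, was higher and 1, Snord118, was lower. Rn7s1, of the signal recognition particle, had 4.24 and 4.74 CPM in the line, against 0.0891, 0.0455 and 0.0417 CPM (log2 fold 6.12 ± 1.64, adjusted p = 0.0089), and belongs to a multicopy family whose reads may be split. Snord118 had 4.01 and 4.27 CPM in the line, against 36.2, 152 and 51.2 CPM (log2 fold -4.28, adjusted p = 0.024). Rn7sk, which regulates transcription elongation, had 7962 and 9327 CPM in the line, against 14734, 37324 and 19057 CPM in the tumours. Rpph1, another, had 4058 and 4769 CPM, against 8433, 35741 and 14374 CPM. Neither passed, and Rn7sk passed without tumour 1.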

How the data were processed

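RNA-seq libraries of 2 cell line samples and 3 R245W tumours were analysed from the authors' deposited table of raw read counts per gene (49585 gene IDs, 20 libraries). Reads were aligned with STAR 2.6.0b to GRCm38, and DESeq2 was used, per the submitters' processing notes. The counting program, annotation and strand setting are not given in the sources used here. Gene names and positions were matched to GENCODE M21, for 49326 IDs.

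Genes with 0.5 CPM or more in both line libraries or in 2 or more R245W tumours were kept. All 20 libraries entered a single edgeR 4.0.16 quasi-likelihood fit (R 4.3.3, TMM scaling, limma 3.58.1) with 6 groups, each line library being its own group. Its 14 residual degrees of freedom come from the 18 tumours, so each line library is assumed to vary as the tumours do. P-values were Benjamini-Hochberg adjusted over all 18657 genes. The fit was tested on simulated data. Alternatives included DESeq2 1.42.0 and limma voom.

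The 44 gene lists and the members described were chosen with earlier results of these data known. Named by rule were the 12 largest log2 folds per direction among called genes whose line libraries lay beyond all 3 tumours and whose higher group averaged 20 CPM or more, passing over genes known only by a model or clone number, pseudogenes and antigen receptor segments. Other list members were named for their role with their values known. Of 658 list entries 657 were in the table. Promoters came from RefSeq. Intervals and floors of 3 counts cover counting error only. A few listed genes are counted in their lists and are not reported here by name.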

Additional observations from a re-analysis of the deposited data

How the results depend on the processing

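The counts of called genes were within 1.5 times the reported ones under every alternative but a filter at 5 CPM and a fit of only the 5 libraries. At least 5 CPM left 12089 genes and gave 1486 higher and 2030 lower for the control library, 1701 and 2166 for the siRNA library, and 1386 and 1935 called with both. The fit of only the 5 libraries, whose spread comes from the 3 R245W tumours alone, gave 1505 higher and 1908 lower for the control library, 1803 and 2217 for the siRNA library, and 1450 and 1764 with both. It kept 46.9% of the 6303 calls, against 97.6% kept by DESeq2, which gave no adjusted p for 102 genes, and 95.5% by limma voom. Without an R245W tumour in turn the control library had 2103 to 3264 genes higher and 2858 to 3901 lower. The siRNA library then had 2404 to 3592 higher and 3123 to 4137 lower, and 2002 to 3132 and 2665 to 3650 were called with both. Trp53 passed with the mean of all 4 tumour genotypes, p53+/- among them, in place of the R245W tumours. Its log2 fold was then 1.30 (adjusted p = 0.00823, edgeR). It ranged from 0.479 to 0.691 without a tumour in turn. Pdgfrb changed sign at 5 CPM (-0.055), and Sox9 ranged from -0.12 to 2.51 without a tumour in turn, neither being called. The causes were not tested. Of 185 named genes the control call was lost for 25 in the fit of 5 libraries, 14 without a filter, 13 with limma voom, and 17, 7 and 21 without R245W tumours 1, 2 and 3. The filter at 5 CPM moved the median log2 fold of shared genes by -0.26 and no filter by 0.10, which bears on small differences. No paired analysis was possible because the labels number no replicates, so the order of accession alone gave the numbers used. Depth limits the tumours more than the line, since 3 counts stand for 0.125 to 0.137 CPM there, and 1 line with no replicate culture limits every comparison.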
